A study of Mus musculus with 2 samples.

Results

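Ribosome assembly factors and RNA helicases were examined in 2 lymphomas of L-DKO mice. The set held every gene of the deposited expression matrix whose symbol began with Nop, Nol, Utp, Rrp, Exosc, Ddx or Dhx and a digit, together with Imp3, Imp4, Pes1, Ppan and Bop1, and without the Y-linked helicase gene Ddx3y. It comprised 88 of the 8249 genes, of which 43 were nucleolar or exosome factors (called nucleolar factors below) and 45 carried a helicase symbol (Ddx or Dhx). In RefSeq (GRCm38.p6) 104 protein-coding symbols followed the same pattern. Of these, 87 had a row under the present or an older symbol, and the other 17 were not analysed here. The member without a current symbol of this pattern was Ddx26b, an older name of Ints6l.

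Both lymphomas were negative for the CD1d tetramer, the reagent that stains invariant natural killer T cells, and both came from L-DKO mice, which the title of the series links to high levels of E proteins, a family of basic helix-loop-helix transcription factors. The labels do not spell out the alleles. The first came from a Peyer's patch, lymphoid tissue of the intestine, of a 26-week-old mouse, and the second from the thymus of a 30-week-old mouse. RNA was taken from lysed tumour tissue per the labels, whereas the series text speaks of sorted cells. With 1 library per lymphoma no difference has a replicate check and no test was possible, and site, mouse and age cannot be told apart.

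Ribosomes are assembled in the nucleolus. RNA polymerase I transcribes a long precursor there, small nucleolar ribonucleoproteins (snoRNPs) modify it, and processome factors fold and cleave it into the RNAs of the small (40S) and large (60S) subunits, while the RNA exosome trims its ends and degrades its spacers. RNA helicases of the DEAD-box family (Ddx) and the DEAH-box family (Dhx) use ATP to open RNA duplexes or remove proteins from RNA. Some work on ribosome precursors, and others in splicing, mRNA export, translation, RNA decay or the sensing of viral RNA. The factor MYC is known to raise transcription of many ribosome assembly genes in growing cells.

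Levels are FPKM (fragments corrected for transcript length and library size), computed from deposited values that were read as log2(FPKM + 1). Each difference is the log2 value of the Peyer's patch lymphoma minus that of the thymic lymphoma, and genes are called apart when it reaches 2 in either direction, a 4-fold gap. Because 1 is added to each FPKM, this scale understates the change of low genes. Log2 differences follow the levels in parentheses. Sequencing depth was unknown. All 9 T cell markers examined were measured, and they summed to 4039 FPKM in the Peyer's patch lymphoma and 2433 FPKM in the thymic lymphoma. Of these, 8 were higher in the Peyer's patch lymphoma, and Cd3e was lower (172 and 561 FPKM). The 4 measured globin genes of 9 listed erythroid genes summed to 2425 and 96390 FPKM, and the 5 measured MHC class II genes of 11 to 336 and 1874 FPKM. The 11 proliferation genes, all measured, summed to 917 and 474 FPKM, with a median difference of 1.24. Of the 11, 8 lay above 0, and Ccnb1 (-2.56), Aurkb (-1.94) and Plk1 (-0.55) lay below. The B cell list, with 2 of 6 measured, summed to 165 and 295 FPKM. Its genes differed in direction, Cd79b with 42.9 and 242 FPKM and Cd72 with 122 and 53.5 FPKM. The fibroblast list had Fn1 alone at 16.0 and 84.8 FPKM, and the intestinal epithelium list Epcam alone at 65.1 and 59.6 FPKM. None of these measured markers was at 0. Myc had 229 FPKM in the Peyer's patch lymphoma and 100.3 FPKM in the thymic lymphoma. The part of purity, or of the share of dividing cells, in the results below was not tested, and fewer cells of a type cannot be told from less RNA per cell in such tissue samples.

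Of the genes matched by symbol, large-subunit factors (8 of 11) and snoRNP core proteins (3 of 3) were mostly higher in the Peyer's patch lymphoma, small-subunit factors and the exosome were split, and the largest differences in the opposite direction belonged to a few small-subunit factors and helicases. Higher in the Peyer's patch lymphoma by any amount were 51.4% of all genes. Of the 88 genes, 18 (20.5%) were at least 4-fold apart, where 19.9% of all genes were. By direction, 9 of the 88 were past 4-fold with the higher level in the Peyer's patch lymphoma, where 7.84% of all genes were. Another 9 of the 88 were higher in the thymic lymphoma, where 12.0% of all genes were. With the libraries rescaled to the same total the counts were 13 and 5 of the 88. Of all genes, 10.7% and 5.46% were then past 4-fold in these directions. Differences of the authors' standard scores were multiplied by the mean of the 2 SDs behind the scores. A value of 2 was read as 4-fold, although it is not a log2 ratio of FPKM. With these scores the counts were 15 and 7 of the 88, beside 14.8% and 7.57% of all genes. The share apart was therefore close to that of the whole matrix. Within 2-fold lay 45 of the 88 genes, or 51.1%, beside 49.8% of all genes.

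The shift of the median was small. The median difference of the 88 genes was 0.38, with 50 above 0 and 38 below, against 0.05 for all genes. Nucleolar factors had a median of 0.53 with 25 of 43 above 0, and helicases a median of 0.30 with 25 of 45 above 0. Above 0 lay 51.4% of all genes. At least 4-fold apart were 10 nucleolar factors (23.3%) and 8 helicases (17.8%). The nucleolar median exceeded that of the helicases by 0.22, and with the authors' standard scores it was lower (a difference of -0.08). Rescaling the libraries to the same total moved the median of all genes to 0.50 and that of nucleolar factors and helicases to 0.95 and 0.75. The totals were 3.42e+06 FPKM in the Peyer's patch lymphoma and 4.97e+06 FPKM in the thymic lymphoma. The highest gene of each library had 816954 and 1.65e+06 FPKM in the same order. Both libraries were scaled down and 1 was still added, so the added value weighed more than as deposited. Its part in genes that fell short of 4-fold was not tested. Relative to the median of all genes, nucleolar factors were higher by 0.48 as deposited, 0.46 at the same total and 0.20 with the standard scores, and helicases by 0.25, 0.26 and 0.28. Scaling also touched single directions, since 49 genes were above 0 and 27 below 0 under all 5 scalings, and 12 turned sign under at least 1 of them.

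**Figure D1:**
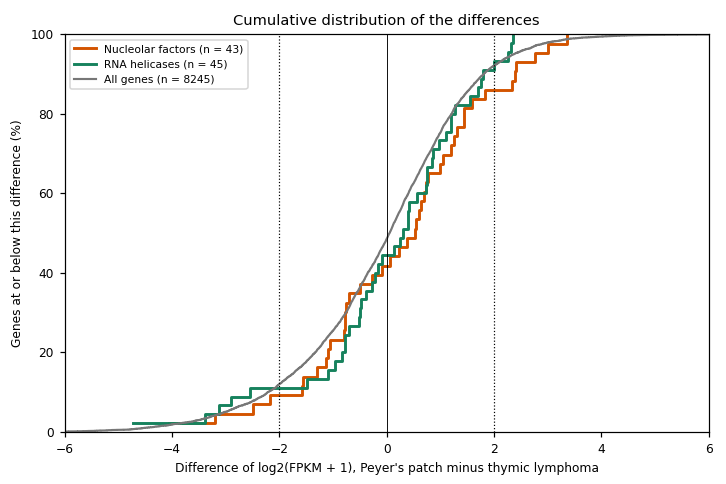
Cumulative share of genes (vertical axis, %) by the difference of log2(FPKM + 1), Peyer's patch minus thymic lymphoma (horizontal axis), for 43 nucleolar factors, 45 RNA helicases and 8245 genes of the whole matrix. Dotted lines mark 4-fold. Both coloured curves lie to the right of the grey one around the middle, with medians of 0.53 and 0.30 against 0.05, and the curves run close together beyond the dotted line on the left.

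**Figure D2:**
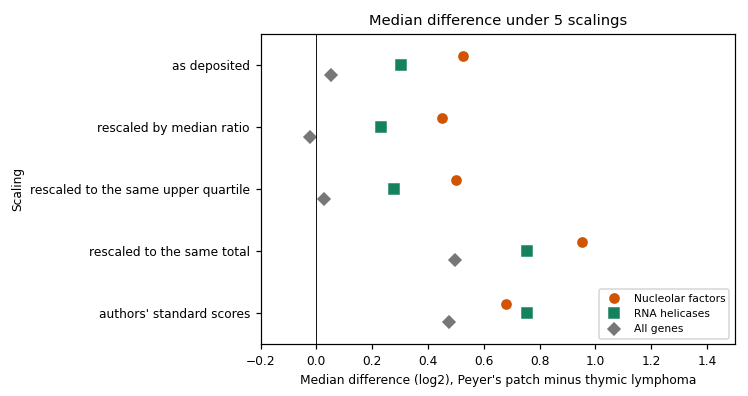
Median difference (log2, horizontal axis) of nucleolar factors, RNA helicases and all genes, as deposited and under 4 other scalings (rows). Each point is the median of 1 group of genes. In the row of scores the value is the score difference times the mean SD, not a log2 ratio. Rescaling to the same total and the authors' standard scores move all 3 medians to the right, and with the scores the nucleolar median (0.68) falls to the left of the helicase median (0.75).

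Of the large-subunit factors, 8 of 11 were higher in the Peyer's patch lymphoma, as were 51.4% of all genes. The median difference of these 11 was 1.31, or 1.26 above the median of all genes. Under the 4 other scalings the same excess ranged between 1.23 and 1.26. Pes1, the central protein of the PeBoW complex that matures 60S precursors, had 73.96 FPKM in the Peyer's patch lymphoma and 8.38 FPKM in the thymic lymphoma, a difference of 2.998. Its partner in that complex, Bop1, had 54.5 FPKM in the Peyer's patch lymphoma and 19.6 FPKM in the thymic lymphoma, which is short of 4-fold at 1.43. The third subunit, Wdr12, whose symbol lies outside the set, had 32.4 FPKM in the Peyer's patch lymphoma and 77.3 FPKM in the thymic lymphoma (-1.23). The genes of this 1 complex thus differed in direction, and Pes1 alone was past 4-fold. The ratio of Pes1 to Bop1 was 1.36 in the Peyer's patch lymphoma and 0.428 in the thymic lymphoma.

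Nop2, a methyltransferase of large-subunit rRNA, had 29.1 FPKM in the Peyer's patch lymphoma and 3.44 FPKM in the thymic lymphoma (2.76). Ppan, a 60S assembly factor known from yeast and fly, had 131 FPKM in the Peyer's patch lymphoma and 24.3 FPKM in the thymic lymphoma (2.38). Both were past 4-fold, and the thymic Nop2 value was the second lowest among the 88 genes in that lymphoma. Nol8 came next at 28.9 FPKM in the Peyer's patch lymphoma and 7.41 FPKM in the thymic lymphoma, a difference of 1.83. With the standard scores, which give no log2 ratio of FPKM, its value was 2.51. Rrp1b, a nucleolar regulator related to the yeast 60S factor Rrp1, had 80.01 FPKM in the Peyer's patch lymphoma and 31.6 FPKM in the thymic lymphoma (1.31), and its paralogue Rrp1 had 296 FPKM in the Peyer's patch lymphoma and 205 FPKM in the thymic lymphoma (0.53). Rrp1 was the most abundant of the 11 in both lymphomas. Rrp15 differed least, at 113 FPKM in the Peyer's patch lymphoma and 87.3 FPKM in the thymic lymphoma.

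Large-subunit factors that went the other way were Nol12, Nop16 and Nol9. Nol12, related to a yeast nuclease that trims 60S precursors, had 32.8 FPKM in the Peyer's patch lymphoma and 151 FPKM in the thymic lymphoma (-2.17), past 4-fold as deposited and not at the same total (-1.56) or with the standard scores (-1.85). Nol9, a polynucleotide kinase that acts on the spacer between the large-subunit RNAs, had 14.8 FPKM in the Peyer's patch lymphoma and 31.8 FPKM in the thymic lymphoma (-1.05). Nop16 had 13.7 FPKM in the Peyer's patch lymphoma and 30.5 FPKM in the thymic lymphoma (-1.098). These last 2 genes differed by little more than 2-fold.

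The 3 core proteins of snoRNPs in the set were higher in the Peyer's patch lymphoma, and none reached 4-fold. Nop58 and Nop56 form the core of box C/D snoRNPs, which guide methylation of rRNA. Nop58 had 1400.3 FPKM in the Peyer's patch lymphoma and 515 FPKM in the thymic lymphoma (1.44), the highest nucleolar factor in both. Nop56 had 347 FPKM in the Peyer's patch lymphoma and 150.4 FPKM in the thymic lymphoma (1.201). The ratio of Nop56 to Nop58 was 0.248 in the Peyer's patch lymphoma and 0.292 in the thymic lymphoma, so the pair kept a similar proportion. Fbl (fibrillarin), the methyltransferase of the same particle and outside the symbol pattern, went the other way with 36.5 FPKM in the Peyer's patch lymphoma and 74.6 FPKM in the thymic lymphoma (-1.01). Nhp2l1, the remaining box C/D core protein, had 259.6 and 239 FPKM in the same order (0.12). Nop10, a small protein of the box H/ACA snoRNPs that guide pseudouridylation, had 192 FPKM in the Peyer's patch lymphoma and 131 FPKM in the thymic lymphoma (0.55). With all symbols counted, 7 of the 8 core proteins of both particle types lay above 0, beside 51.4% of all genes. In GENCODE M21 the genes Nop58 and Nop56 hold snoRNA genes on their own strand, as do Ppan and Ddx39b. Whether reads of those snoRNAs entered the values was not tested.

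Of the 20 small-subunit factors 10 lay above 0 and 10 below, where 51.4% of all genes lay above. Their median was -0.02, close to the median of all genes (0.05). It turned positive at the same total (0.46) and with the standard scores (0.62), where the median of all genes was 0.50 and 0.48. Utp23, a processome factor with a nuclease-like fold known from yeast, had 114 FPKM in the Peyer's patch lymphoma and 10.2 FPKM in the thymic lymphoma, and its difference of 3.36 was the largest of the 88 genes in that direction. Rrp7a, which in yeast belongs to the UTP-C subcomplex, had 143 FPKM in the Peyer's patch lymphoma and 27.3 FPKM in the thymic lymphoma (2.34). Both were higher in the Peyer's patch lymphoma. In the opposite direction, Nol10, whose yeast counterpart Enp2 binds the processome, had 1.69 FPKM in the Peyer's patch lymphoma and 43.8 FPKM in the thymic lymphoma (-4.06). Utp18, a protein of the UTP-B subcomplex, had 5.99 FPKM in the Peyer's patch lymphoma and 63.01 FPKM in the thymic lymphoma (-3.19). Its value and that of Nol10 in the Peyer's patch lymphoma lay among the lower levels of that library, at percentiles 13.4 and 2.72 of all genes.

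Within the small-subunit processome, direction differed inside subcomplexes. Of UTP-A, Nol11 had 61.2 FPKM in the Peyer's patch lymphoma and 19.6 FPKM in the thymic lymphoma (1.597, or 2.09 with the standard scores) and Utp15 had 30.1 FPKM in the Peyer's patch lymphoma and 14.01 FPKM in the thymic lymphoma (1.05), and both were higher in the Peyer's patch lymphoma. Of UTP-B, Utp6 had 22.2 FPKM in the Peyer's patch lymphoma and 14.3 FPKM in the thymic lymphoma (0.603), the reverse of Utp18. Nol6, the counterpart of the yeast UTP-C protein Utp22, had 8.32 FPKM in the Peyer's patch lymphoma and 26.4 FPKM in the thymic lymphoma (-1.55), the reverse of Rrp7a. The U3 snoRNA binders Imp3 and Imp4, which work in 1 complex with Mphosph10, were both higher in the Peyer's patch lymphoma. Imp3 had 259.9 FPKM in the Peyer's patch lymphoma and 167 FPKM in the thymic lymphoma (0.64), and Imp4 had 99.4 FPKM in the Peyer's patch lymphoma and 49.2 FPKM in the thymic lymphoma (0.998). Mphosph10 had 67.9 FPKM in the Peyer's patch lymphoma and 37.5 FPKM in the thymic lymphoma (0.84). The U3-specific protein Rrp9 had 35.9 FPKM in the Peyer's patch lymphoma and 63.2 FPKM in the thymic lymphoma (-0.799). Nop9 and Nop14 were nearly equal between lymphomas, with differences of 0.06 and -0.09, and both turned sign under at least 1 other scaling.

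The remaining small-subunit factors were within 2-fold except Utp11l, which had 68.4 FPKM in the Peyer's patch lymphoma and 169.8 FPKM in the thymic lymphoma (-1.300). Utp20, a large scaffold of the processome, had 20.68 FPKM in the Peyer's patch lymphoma and 12.1 FPKM in the thymic lymphoma (0.73), and Utp3 had 55.1 FPKM in the Peyer's patch lymphoma and 33.7 FPKM in the thymic lymphoma (0.69). Nol7 had 65.03 FPKM in the Peyer's patch lymphoma and 106 FPKM in the thymic lymphoma (-0.69). Rrp12, the lowest nucleolar factor by mean level, had 6.29 FPKM in the Peyer's patch lymphoma and 7.79 FPKM in the thymic lymphoma (-0.27) and turned sign under at least 1 scaling. Nol4l, matched by its symbol and with no known role in ribosome assembly, had 50.3 FPKM in the Peyer's patch lymphoma and 151 FPKM in the thymic lymphoma (-1.57).

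Utp14a and its retroposed copy Utp14b behaved alike in the values. Utp14a had 37.3 FPKM in the Peyer's patch lymphoma and 64.7 FPKM in the thymic lymphoma (-0.78), and Utp14b had 6.97 FPKM in the Peyer's patch lymphoma and 12.5 FPKM in the thymic lymphoma (-0.76). The ratio of Utp14a to Utp14b was 5.35 in the Peyer's patch lymphoma and 5.16 in the thymic lymphoma. Reads of such a copy can be shared with its source, and Utp14b lies on the same strand as Acsl3 (156 and 56.9 FPKM), so its value is uncertain.

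The 8 exosome subunits of the set lay on both sides of 0, 4 above and 4 below, where 51.4% of all genes lay above. Their median was -0.13. That median became 0.38 at the same total and 0.20 with the standard scores, below the median of all genes in each case. Exosc7, a subunit of the barrel, had 121 FPKM in the Peyer's patch lymphoma and 22.1 FPKM in the thymic lymphoma (2.401). Exosc4, also of the barrel, had 8.88 FPKM in the Peyer's patch lymphoma and 54.2 FPKM in the thymic lymphoma (-2.48). These 2 subunits of 1 ring were each past 4-fold as deposited, in opposite directions. They made up 25% of the 8 subunits, where 19.9% of all genes were past 4-fold. The difference of Exosc4 was short of 4-fold at the same total (-1.72) and with the standard scores (-1.92). The other barrel subunits measured, Exosc8 and Exosc9, were lower in the Peyer's patch lymphoma, Exosc8 with 163 and 279 FPKM and Exosc9 with 83.04 and 117 FPKM in the same order (-0.77 and -0.49), and Exosc9 turned sign under at least 1 other scaling. Cap subunits also differed in direction. Exosc2 had 159 FPKM in the Peyer's patch lymphoma and 66.6 FPKM in the thymic lymphoma (1.25), and Exosc3 had 160.0 FPKM in the Peyer's patch lymphoma and 93.7 FPKM in the thymic lymphoma (0.77). Exosc1 had 23.5 FPKM in the Peyer's patch lymphoma and 52.8 FPKM in the thymic lymphoma (-1.14), the reverse of the other two. The nuclease Exosc10, which joins the exosome in the nucleus, had 51.9 FPKM in the Peyer's patch lymphoma and 44.2 FPKM in the thymic lymphoma (0.23). Dis3, another exosome nuclease with a symbol outside the set, had 28.6 FPKM in the Peyer's patch lymphoma and 10.5 FPKM in the thymic lymphoma (1.36). Dis3 is not part of the counts and median above.

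**Figure D3:**
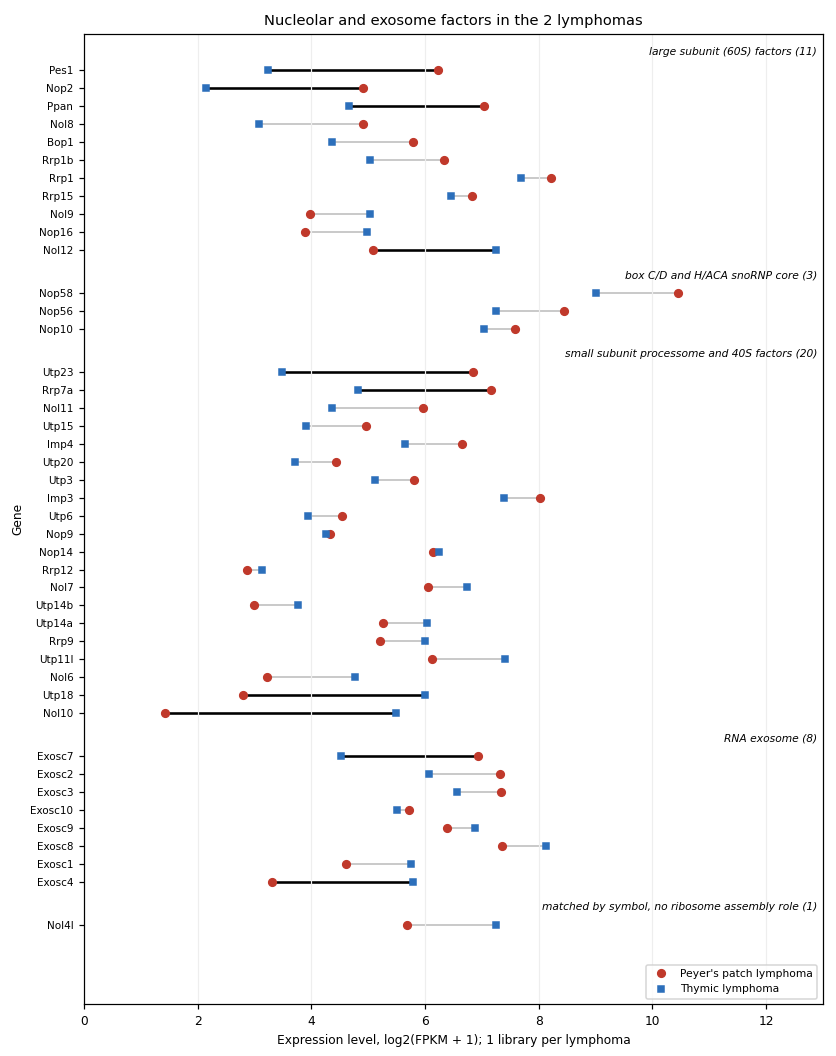
Level of each of the 43 nucleolar factors, log2(FPKM + 1) on the horizontal axis, in the Peyer's patch lymphoma (circles) and the thymic lymphoma (squares), by role. Each point is 1 library, and black lines join values at least 4-fold apart. Circles lie to the right of squares for 8 of 11 large-subunit factors and the 3 snoRNP proteins of the set, and small-subunit factors and the exosome divide between both sides.

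The 45 helicases spanned differences between -4.72 and 2.36. By symbol, 2 of 30 Ddx genes and 6 of 15 Dhx genes were at least 4-fold apart, beside 19.9% of all genes, and the difference between these small groups was not tested. The Dhx genes past 4-fold were 3 in each direction, and both such Ddx genes were higher in the thymic lymphoma. The median level of Dhx genes was 25.2 FPKM in the Peyer's patch lymphoma and 29.1 FPKM in the thymic lymphoma, and that of Ddx genes 56.7 and 50.9 FPKM. Of the 44 genes of the set under its median mean level, 12 (27.3%) were past 4-fold, and of the 44 at or above it, 6 (13.6%). That mean comes from the same 2 values as the difference, so a gene low in 1 library moves toward the lower group. A link between level and difference was not tested.

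Helicases of ribosome assembly numbered 16, with 10 above 0, a median of 0.58 and 3 past 4-fold, all of them higher in the thymic lymphoma. That is 18.8% of the 16, beside 19.9% of all genes apart and 12.0% of all genes past 4-fold in that direction. Above 0 lay 51.4% of all genes. Dhx33, a nucleolar helicase known to promote rRNA transcription, had 3.08 FPKM in the Peyer's patch lymphoma and 107 FPKM in the thymic lymphoma. Its difference of -4.72 was the widest of the 88 genes. Ddx55, whose yeast counterpart Spb4 acts on 60S precursors, had 3.98 FPKM in the Peyer's patch lymphoma and 51.1 FPKM in the thymic lymphoma (-3.39). Dhx37, which frees U3 snoRNA from the small-subunit precursor, had 2.46 FPKM in the Peyer's patch lymphoma and 29.1 FPKM in the thymic lymphoma (-3.12), and at the same total its difference was -1.995, just short of 4-fold. All 3 were under 5 FPKM in the Peyer's patch lymphoma, where low values are less certain.

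Most other assembly helicases stood higher in the Peyer's patch lymphoma by less than 4-fold. Ddx56 had 46.5 FPKM in the Peyer's patch lymphoma and 10.97 FPKM in the thymic lymphoma, and its difference of 1.99 was just short of 4-fold. It passed 4-fold at the same total (2.19) and with 0.1 added to each FPKM in place of 1 (2.08). With the standard scores, which give no log2 ratio of FPKM, its value was 2.58. Ddx18, the counterpart of yeast Has1, had 175 FPKM in the Peyer's patch lymphoma and 50.7 FPKM in the thymic lymphoma (1.76). It passed 4-fold at the same total (2.22), and its value with the scores was 2.04. Ddx49 had 65.8 FPKM in the Peyer's patch lymphoma and 19.7 FPKM in the thymic lymphoma (1.69), with 2.03 and 2.18 under the same 2 scalings. Ddx24 had 52.1 and 22.2 FPKM in the same order (1.198) and Ddx10 had 66.9 and 30.5 FPKM (1.11). The most abundant of this role was Ddx47, whose yeast counterpart Rrp3 acts on 40S precursors, at 220.4 FPKM in the Peyer's patch lymphoma and 131 FPKM in the thymic lymphoma (0.75). Ddx21, which couples RNA polymerase I transcription to rRNA processing, had 162 FPKM in the Peyer's patch lymphoma and 87.9 FPKM in the thymic lymphoma (0.87), and its close relative Ddx50 had 34.8 FPKM in the Peyer's patch lymphoma and 28.02 FPKM in the thymic lymphoma (0.304). Ddx27 had 126 FPKM in the Peyer's patch lymphoma and 74.4 FPKM in the thymic lymphoma (0.75). Of those lower in the Peyer's patch lymphoma, Ddx51 (5.44 and 12.7 FPKM) and Ddx31 (4.59 and 9.86 FPKM) were low in both, and Ddx54 (8.67 and 10.2 FPKM) turned sign under at least 1 scaling. Ddx52 was within 2-fold, with 24.8 FPKM in the Peyer's patch lymphoma and 18.4 FPKM in the thymic lymphoma (0.41).

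Spliceosomal and mRNA processing helicases (13 genes) had a median of 0.40, with 7 above 0 and 2 past 4-fold, both higher in the Peyer's patch lymphoma. The share apart was 15.4%, beside 19.9% of all genes, and 51.4% of all genes lay above 0. Dhx8, which releases spliced mRNA from the spliceosome, had 56.8 FPKM in the Peyer's patch lymphoma and 10.3 FPKM in the thymic lymphoma (2.36). Dhx35, a protein found in spliceosomes, had 33.3 FPKM in the Peyer's patch lymphoma and 6.19 FPKM in the thymic lymphoma (2.26), and was short of 4-fold with 5 added to each FPKM (1.78). Dhx38, which acts at the catalytic steps, had 66.3 FPKM in the Peyer's patch lymphoma and 27.02 FPKM in the thymic lymphoma (1.26). Ddx46, which acts early on the U2 particle, had 185 FPKM in the Peyer's patch lymphoma and 52.5 FPKM in the thymic lymphoma (1.795). It passed 4-fold at the same total (2.25), and its value with the standard scores, not a log2 ratio, was 2.06. Others of the splicing cycle lay below 0 as deposited. Dhx16 had 54.02 FPKM in the Peyer's patch lymphoma and 97.02 FPKM in the thymic lymphoma (-0.83), and Ddx23 had 110.2 FPKM in the Peyer's patch lymphoma and 189 FPKM in the thymic lymphoma (-0.78). Dhx15, which takes spliceosomes apart, had 127 FPKM in the Peyer's patch lymphoma and 165 FPKM in the thymic lymphoma and turned sign under at least 1 other scaling. Ddx42 and Ddx20, the second of which helps assemble spliceosomal particles as Gemin3, differed by 0.40 and 0.57 and were within 2-fold.

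The paralogues Ddx39b and Ddx39, which both help load mRNA export factors, differed in opposite directions. Ddx39b had 1075 FPKM in the Peyer's patch lymphoma and 367 FPKM in the thymic lymphoma (1.55), and passed 4-fold at the same total (2.08). Ddx39 had 57.1 FPKM in the Peyer's patch lymphoma and 161 FPKM in the thymic lymphoma (-1.48). The ratio of Ddx39 to Ddx39b was 0.0531 in the Peyer's patch lymphoma and 0.438 in the thymic lymphoma. Their coding sequences are alike, so reads could have been split between them, and this was not tested. Ddx5, a coregulator of transcription and splicing, was the most abundant of the 88 genes at 2024 FPKM in the Peyer's patch lymphoma and 2138 FPKM in the thymic lymphoma, a difference of -0.08. Its paralogue Ddx17 had 41.4 FPKM in the Peyer's patch lymphoma and 57.98 FPKM in the thymic lymphoma (-0.47), and the directions of both depended on scaling.

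Of the helicase roles, that of mRNA export, translation and decay had the smallest median absolute difference (0.395). All 7 genes were within 2-fold, beside 49.8% of all genes. Their median was 0.25 and 5 lay above 0, beside 51.4% of all genes. Whether 7 genes set this role apart was not tested. Ddx3x, which helps the translation of structured mRNAs, had 740.0 FPKM in the Peyer's patch lymphoma and 414 FPKM in the thymic lymphoma (0.84). Ddx6, a helicase of mRNA decay and translational repression, had 60.6 FPKM in the Peyer's patch lymphoma and 68.3 FPKM in the thymic lymphoma (-0.17), and turned sign at the same total (0.35) and with the standard scores (0.18). Dhx29, which helps initiation on structured leaders, had 16.3 FPKM in the Peyer's patch lymphoma and 7.81 FPKM in the thymic lymphoma (0.98). Dhx36, which unwinds G-quadruplexes, had 48.3 FPKM in the Peyer's patch lymphoma and 43.7 FPKM in the thymic lymphoma (0.14), and Dhx34, a factor of nonsense-mediated decay, had 25.2 FPKM in the Peyer's patch lymphoma and 36.04 FPKM in the thymic lymphoma (-0.499) and turned sign under the same scalings (0.02 and 0.01). The mRNA export helicases Ddx19a and Ddx19b differed little, Ddx19a with 70.9 and 53.7 FPKM and Ddx19b with 11.5 and 9.52 FPKM in the same order (0.395 and 0.25), and Ddx19a exceeded Ddx19b by a ratio of 6.16 in the Peyer's patch lymphoma and 5.63 in the thymic lymphoma.

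Outside these roles, 2 helicases passed 4-fold with the higher level in the thymic lymphoma. Ddx58, which encodes RIG-I, the interferon-inducible sensor of viral RNA, had 64.2 FPKM in the Peyer's patch lymphoma and 379 FPKM in the thymic lymphoma (-2.54, or -1.96 at the same total). Dhx30, known for ribosome assembly in mitochondria, had 15.9 FPKM in the Peyer's patch lymphoma and 124 FPKM in the thymic lymphoma (-2.89). MHC class II genes, which interferon can also induce, had a median difference of -2.23, with 4 of the 5 measured higher in the thymic lymphoma and H2-Ob higher in the Peyer's patch lymphoma (49.1 and 17.8 FPKM, 1.42), and the macrophage genes, 3 measured of 6, had a median of -0.78. Their part in the Ddx58 value was not tested. Dhx57 had 16.7 FPKM in the Peyer's patch lymphoma and 2.53 FPKM in the thymic lymphoma (2.32), the lowest thymic level of the 88 genes, and was short of 4-fold with 5 added (1.52) or at the same total (1.96). Dhx9, a nuclear helicase of many RNA processes, had 122 FPKM in the Peyer's patch lymphoma and 200.4 FPKM in the thymic lymphoma (-0.71). Ddx1, which takes part in tRNA ligation, had 56.4 FPKM in the Peyer's patch lymphoma and 96.7 FPKM in the thymic lymphoma (-0.77). Ddx11, a helicase of DNA rather than RNA, had 36.6 FPKM in the Peyer's patch lymphoma and 21.7 FPKM in the thymic lymphoma (0.73). Ddx26b, counted here only by its older symbol and now named Ints6l, had 16.1 FPKM in the Peyer's patch lymphoma and 6.46 FPKM in the thymic lymphoma (1.200). Dhx40 (11.7 and 17.2 FPKM) and Dhx32 (9.24 and 11.4 FPKM) were low in both and turned sign under at least 1 scaling.

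**Figure D4:**
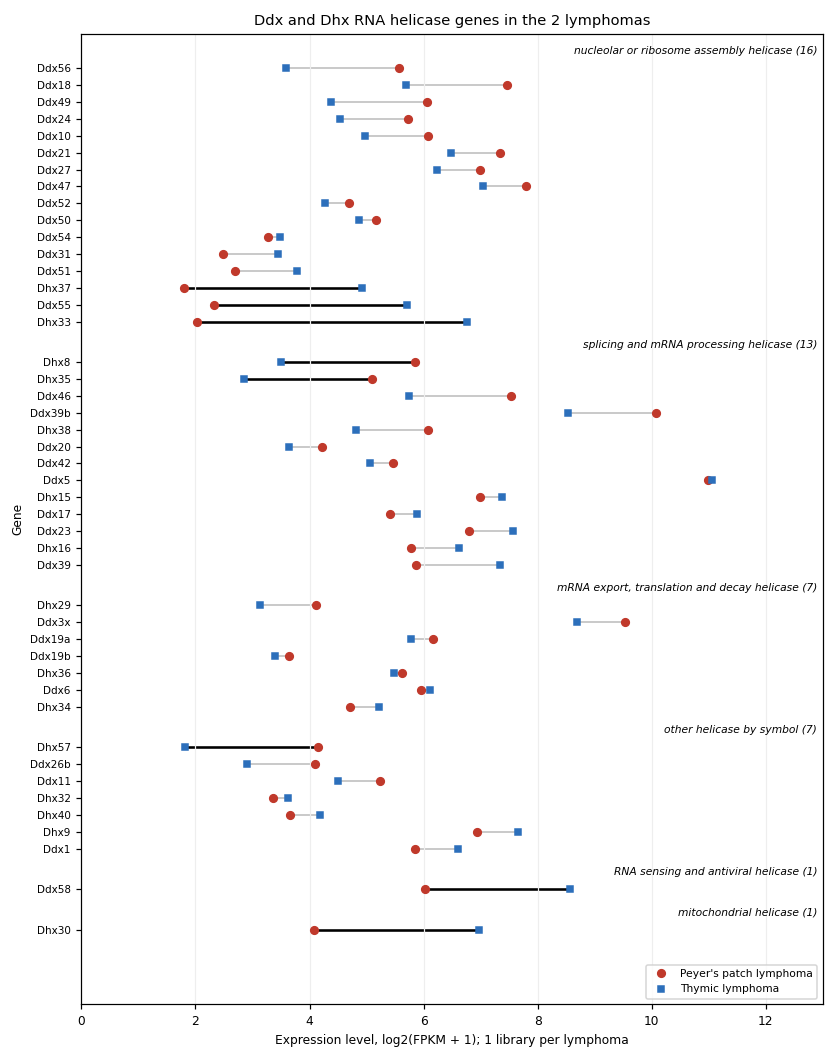
Level of each of the 45 helicase genes, log2(FPKM + 1) on the horizontal axis, in the Peyer's patch lymphoma (circles) and the thymic lymphoma (squares), by role. Each point is 1 library, and black lines join values at least 4-fold apart. Dhx33, Ddx55 and Dhx37 have their circles far to the left of their squares, and the 7 genes of export, translation and decay have the shortest lines as a group.

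Levels across the set spanned a wide range. In the Peyer's patch lymphoma they lay between 1.69 FPKM (Nol10) and 2024 FPKM (Ddx5), and in the thymic lymphoma between 2.53 FPKM (Dhx57) and 2138 FPKM (Ddx5). The median was 53.1 FPKM in the Peyer's patch lymphoma and 43.7 FPKM in the thymic lymphoma, against 31.2 and 32.6 FPKM for all genes. Across the 88 genes the levels of both lymphomas had a Pearson correlation of 0.61 and a Spearman correlation of 0.57, beside 0.69 and 0.62 across all genes. The Pearson value was 0.52 for nucleolar factors and 0.68 for helicases. These describe genes that share 2 libraries, and genes are not independent replicates.

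Neighbouring genes limit some values. In GENCODE M21, 20 of the 88 genes overlap a protein-coding gene on the opposite strand, among them 5 of the 18 past 4-fold (Pes1, Rrp7a, Exosc4, Dhx30 and Dhx57). The libraries were stranded, but whether counting used strand is not given in the sources used here, and without it reads of both genes cannot be told apart. Smarcc1, which overlaps Dhx30, had 149.5 FPKM in the Peyer's patch lymphoma and 96.1 FPKM in the thymic lymphoma, a direction opposite to that of Dhx30. Serhl, which overlaps Rrp7a, had 28.2 and 22.5 FPKM.

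Ribosome assembly genes whose symbols lie outside the pattern had a similar median. Of 89 such genes listed, 85 had values. Their median difference was 0.51 with 51 above 0, where 51.4% of all genes were above 0. Past 4-fold were 6 in favour of the Peyer's patch lymphoma and 4 in favour of the thymic lymphoma, so 11.8% were apart beside 19.9% of all genes. Factors of 60S assembly in this list also lay on both sides. Nip7 had 12.7 FPKM in the Peyer's patch lymphoma and 65.1 FPKM in the thymic lymphoma (-2.27), and Rpf1, Rsl24d1 and Lsg1 had differences of -1.297, -1.29 and -0.93, whereas Rpf2 and Ebna1bp2 had 1.73 and 1.57. Among the 6 were Polr1c and Polr1e, subunits of RNA polymerase I. Polr1c had 60.1 FPKM in the Peyer's patch lymphoma and 5.38 FPKM in the thymic lymphoma (3.26), and Polr1e had 133 FPKM in the Peyer's patch lymphoma and 29.1 FPKM in the thymic lymphoma (2.15). The other Polr1 genes of the list were within 2-fold. Polr1a (0.80) and Polr1b (0.60) lay above 0, and Polr1d (-0.40) lay below. Gar1, an H/ACA snoRNP protein like Nop10, had 472 FPKM in the Peyer's patch lymphoma and 117 FPKM in the thymic lymphoma (2.002). The kinase gene Riok3, whose product acts on 40S precursors, had 3.28 FPKM in the Peyer's patch lymphoma and 68.7 FPKM in the thymic lymphoma (-4.02), and Nmd3, the adapter for export of 60S subunits, had 39.9 FPKM in the Peyer's patch lymphoma and 203 FPKM in the thymic lymphoma (-2.32). RNA helicases without a Ddx or Dhx symbol had 17 of 24 listed genes measured, 11 above 0, a median of 0.39 and 0 at least 4-fold apart. With 2-fold as the bound, 4 of these 17 were apart. The other 13 (76.5%) were within 2-fold, beside 49.8% of all genes.

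Promoter sequences were taken from RefSeq (GRCm38.p6) as windows of 250 bases before to 50 after a start site, 1 window a gene, and were found for 75 of the 88 genes. They were searched for the E-box letters CANNTG, which E proteins and MYC are known to bind, and for CACGTG, the form preferred by MYC, which is included in CANNTG. Both motifs read the same on either strand in this pattern. Windows with CACGTG made up 8 of 35 nucleolar factors (22.9%), 3 of 40 helicases and 686 of 6221 genes of the whole matrix with a window (11.0%). CANNTG was in 62.9%, 55.0% and 61.3%. CAGCTG was in 14.3%, 10.0% and 13.3%, and CAGGTG or its reverse complement CACCTG in 8.57%, 10.0% and 15.8%. Of the genes past 4-fold, CACGTG was in 4 of 8 windows of those higher in the Peyer's patch lymphoma and in 2 of 8 of those higher in the thymic lymphoma. The windows of 2 genes from each direction are printed because all 4 hold CACGTG although the genes differ in opposite directions. Capitals mark each CANNTG.
Pes1, chr11:3963725-3964024, plus strand: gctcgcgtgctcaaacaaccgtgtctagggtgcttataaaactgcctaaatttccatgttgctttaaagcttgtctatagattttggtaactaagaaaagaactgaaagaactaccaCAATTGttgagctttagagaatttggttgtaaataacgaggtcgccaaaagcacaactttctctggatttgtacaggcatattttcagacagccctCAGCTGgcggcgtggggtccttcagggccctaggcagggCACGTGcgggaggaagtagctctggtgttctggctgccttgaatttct
Nop2, chr6:125131633-125131932, plus strand: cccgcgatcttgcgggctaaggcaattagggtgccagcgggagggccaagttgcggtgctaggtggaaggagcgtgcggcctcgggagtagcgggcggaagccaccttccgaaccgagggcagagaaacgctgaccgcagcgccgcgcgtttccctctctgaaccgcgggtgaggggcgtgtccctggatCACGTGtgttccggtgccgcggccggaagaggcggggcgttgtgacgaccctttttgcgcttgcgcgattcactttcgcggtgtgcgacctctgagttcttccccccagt
Dhx33, chr11:71004383-71004682, minus strand: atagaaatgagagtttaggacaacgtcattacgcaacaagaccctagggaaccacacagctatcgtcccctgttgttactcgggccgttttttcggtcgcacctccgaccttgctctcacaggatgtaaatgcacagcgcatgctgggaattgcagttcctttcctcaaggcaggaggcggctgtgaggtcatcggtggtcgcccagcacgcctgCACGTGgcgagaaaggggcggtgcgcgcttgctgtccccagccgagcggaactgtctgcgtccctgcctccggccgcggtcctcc
Utp18, chr11:93885717-93886016, minus strand: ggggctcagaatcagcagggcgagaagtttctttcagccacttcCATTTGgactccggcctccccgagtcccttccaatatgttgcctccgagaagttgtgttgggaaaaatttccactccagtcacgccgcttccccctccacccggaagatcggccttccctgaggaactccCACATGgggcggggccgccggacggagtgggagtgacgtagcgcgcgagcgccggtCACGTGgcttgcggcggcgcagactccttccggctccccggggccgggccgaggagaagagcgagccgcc

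Pes1 and Nop2 were higher in the Peyer's patch lymphoma (2.998 and 2.76), and Dhx33 and Utp18 in the thymic lymphoma (-4.72 and -3.19). A match of letters is a description and not a bound site, and no binding data were analysed here.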

How the data were processed

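RNA sequencing values of 2 libraries, 1 per group, were used. The submitters' processing notes name the build mm9 and the tools Cufflinks, TopHat, GATK and Picard, with no version, and the annotation is not stated. Per the file headers, the authors deposited an FPKM and a standard score per gene and library. The deposited FPKM values were read as log2(FPKM + 1). Base and added value were inferred: the smallest value of the Peyer's patch lymphoma equals 6.99 double-precision steps of a base 2 logarithm, close to an integer. For a natural logarithm it equals 10.09 steps. The smallest value of the thymic lymphoma equals 6305.75 base 2 steps. That is too many for the few digits kept, so the check cannot decide the base there, and the same reading was taken for both libraries. The deposited score is a straight line of the log2 value in each library, with means of 3.91 and 4.54 and SDs of 2.84 and 2.43. A score difference was multiplied by the mean of these 2 SDs. Because the SDs differ, the product is not a log2 ratio of FPKM. Cufflinks models fragments, so no whole reads were recovered, depth is unknown and no counting interval was given.

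Genes that reached 1 FPKM in either library were kept (8245, with 4 left out). All 88 genes described passed. Members, roles, lists and alternatives were chosen with earlier results of these data known. Values were named for every gene past 4-fold, the exosome, set pairs of paralogues, the highest, lowest and least changed, and for others to describe a role. Wdr12, Mphosph10, H2-Ob and the other single markers of split lists, and the ribosome assembly genes outside the pattern were named after their values could be seen. Protein sequences were not used here. GENCODE M21 and RefSeq, both of GRCm38, gave overlaps and promoters, and no coordinate was joined with mm9. Python 3.11.15, numpy 2.4.6 and pandas 2.3.3 were used.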

Additional observations from a re-analysis of the deposited data

How the results depend on the processing

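No paired analysis was possible because each group has 1 library and no test was made. Alternatives were added values of 0.1 and 5, no filter or 5 FPKM, bounds of 2-fold and 8-fold, 4 rescalings and means in place of medians. Of the 18 genes past 4-fold, 12 stayed so in the same direction under all 6 alternatives run for single genes, and none turned. With 5 added, genes apart in the whole matrix numbered 1067 (416 higher in the Peyer's patch lymphoma and 651 in the thymic lymphoma). Past 4-fold, 1 helicase was then higher in the Peyer's patch lymphoma. At the same total, 7 helicases were 4-fold higher in the Peyer's patch lymphoma, and 450 genes of the matrix, 5 of the 88, 2 nucleolar factors and 3 helicases in the thymic lymphoma. Medians became 0.83 for the 88 genes, 0.95 for nucleolar factors and 0.75 for helicases. With the standard scores, 1218 genes of the matrix (14.8%) reached the bound of 2 with the higher value in the Peyer's patch lymphoma. Another 624 (7.57%) reached it with the higher value in the thymic lymphoma. In the set, 15 of the 88 genes reached that bound in the first direction (8 nucleolar factors and 7 helicases). In the second direction 7 did (2 nucleolar factors and 5 helicases). Medians became 0.70, 0.68 and 0.75, and the nucleolar median minus the helicase median -0.075. The cause was not tested, apart from the shift of all genes to 0.50 and 0.48. Means in place of medians were 0.13 for the 88 genes, 0.21 for nucleolar factors and 0.045 for helicases.

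At 2-fold, genes apart numbered 4139 in the matrix (2036 higher in the Peyer's patch lymphoma and 2103 in the thymic lymphoma), 43 of the 88 (26 and 17), 24 nucleolar factors (14 and 10) and 19 helicases (12 in the Peyer's patch lymphoma). At 8-fold they numbered 583 in the matrix (165 and 418), 6 of the 88 (1 and 5), 3 nucleolar factors (1 and 2) and 3 helicases (0 and 3). These follow from the bound itself. The filters changed none of the values of the 88 genes.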
